A study of Mus musculus with 52 samples.

Results

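Ribosome-bound RNA of choroid plexus endothelial cells (ECs) was compared between mice with stabilized beta-catenin in their ECs (2 libraries) and wild type (WT) mice (2 libraries), 4 of the 52 samples of the series, chosen by their labels. With stabilized beta-catenin 4 of 14 Wnt feedback regulators and targets and 13 of 25 blood-brain barrier (BBB) transporters rose, and none of 14 genes of the fenestra and caveola group passed the test, against 0.656% called higher among all genes. With a second scaling on EC genes, described below, 3 of the Wnt genes, 7 of the transporters and 0 of the fenestra and caveola group were called. All genes were tested, and both rises and falls are described. In the RiboTag mice an HA-tagged ribosomal protein, Rpl22, is switched on by Cre, so that immunoprecipitation with anti-HA antibody retrieves the ribosomes of the cells in which Cre was active. Cre came from Pdgfb-CreER, a transgene active in ECs and induced by 4-hydroxytamoxifen (4HT).

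The WT mice were Rpl22ribotag/+;Pdgfb-CreER, and the stabilized mice carried Ctnnb1flex3/+ in addition. Both genotypes carried the Cre transgene and had received 4HT, so Cre and 4HT do not differ between them. Mice were 6 to 8 weeks old, and each library came from choroid plexus pooled from 3 to 4 animals, with an aliquot of the homogenate sequenced as input. The labels call the animals adult males. The cortex bound libraries of the same 2 genotypes (2 each) and sorted GFP-positive (GFPpos) ECs of cerebellum and of both pituitary lobes are used below where they show how choroid plexus differs. The WT mice of the sorted experiment are described as Tie2-GFP, with no Cre or 4HT named for them, unlike the WT mice here.

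As background, beta-catenin is the transcriptional arm of canonical Wnt signaling. Without a Wnt ligand it is phosphorylated near its amino terminus and degraded, and with a ligand it accumulates and acts with TCF/LEF factors on target genes. In most brain capillaries this pathway maintains the BBB: tight junctions, few vesicles, and transporters for glucose, amino acids and lipids. Choroid plexus capillaries are of the other kind. They are permeable, their walls are perforated by fenestrae bridged by the protein Plvap, and the blood-cerebrospinal fluid barrier lies in the epithelium around them.

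The stabilizing allele loses exon 3 of Ctnnb1 after recombination. This exon is shown because it carries the phosphorylation sites whose loss keeps the protein from degradation. It lies at chr9:120950522-120950749 on the plus strand of GRCm38.p6, is coding sequence of 228 bases, and its loss removes 76 codons in frame. The capitals mark the codons of serine 33, serine 37, threonine 41 and serine 45.
Ctnnb1 exon 3: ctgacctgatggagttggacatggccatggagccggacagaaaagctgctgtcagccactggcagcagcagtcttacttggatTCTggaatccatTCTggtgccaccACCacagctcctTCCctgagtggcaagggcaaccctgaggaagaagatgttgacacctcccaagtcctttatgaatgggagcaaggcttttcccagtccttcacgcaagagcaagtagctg

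The deposited values count reads per transcript and do not show exon 3 by itself, so they cannot check the recombination. Levels below are TPM (a level per transcript length, scaled to the same total in every library and summed to genes), and fold changes are fitted log2 fold changes of stabilized over WT with their standard error (SE). Ctnnb1 measured 338 and 402 TPM in the WT libraries and 276 and 245 TPM in the stabilized libraries, a log2 fold change of -0.34 ± 0.24 (SE, n = 2 per genotype; edgeR adjusted p = 0.569). Rpl22, whose tagged allele both genotypes carried, measured 64.9 and 53.7 TPM in WT and 39.6 and 74.9 TPM in stabilized libraries (adjusted p = 0.901). Neither gene passed the test.

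The 4 bound libraries held 6409013 to 7585218 estimated counts. The 3 features Gm42418, Gm23935 and Mir6236, which resemble ribosomal RNA, took 63.2 to 70.4% of their TPM, so the TPM of other genes are low in absolute terms. Across genes the replicates correlated with r = 0.873 (WT) and 0.829 (stabilized), which is a description since genes are not independent. Markers of both sexes were present in every choroid plexus library, against the label: Xist, the X-inactivation transcript, had 2592 and 5263 counts in WT and 3950 and 7421 counts in stabilized bound libraries, and the Y-linked Ddx3y had 800 and 458 counts in WT and 518 and 121 counts in stabilized bound libraries. The pools thus differed in their mix, with the fewest Ddx3y counts in stabilized replicate 2. The mix also leaned with genotype. Y-linked Uty (410 and 240 counts in WT, 160 and 20 in stabilized), Kdm5d (300 and 276, 193 and 71) and Eif2s3y (232 and 200, 124 and 39) did not overlap in bound libraries. None of them was called by edgeR (adjusted p from 0.338 to 0.599), and in the inputs their counts overlapped. The part of sex in the choroid plexus results was not tested. Of the 143 genes called below, none was on chromosome Y and 5 were on chromosome X. In the cortex the sexes separated the genotypes: Xist had 0 counts in both WT bound libraries and 1102 and 1426 counts in the stabilized ones, and Ddx3y had 1255 and 1306 counts in WT and 0 in both stabilized ones. Genotype and sex therefore cannot be told apart in the cortex.

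The bound fraction was enriched for EC transcripts but was not pure, and macrophage transcripts were enriched in it too. The 18 pan-EC markers summed to 552 and 686 TPM in WT bound and to 1397 and 1046 TPM in stabilized bound libraries. In the inputs they summed to 36.2 and 34.9 TPM in WT and to 50.3 and 52.4 TPM in stabilized libraries. Their sum was thus higher in the stabilized inputs too, with a median log2 fold change of 0.53 and 1 of 17 called higher by edgeR. The 26 markers of choroid plexus epithelium, among them the secreted thyroxine carrier Ttr, summed to 23508 and 24382 TPM in WT bound and to 15613 and 13494 TPM in stabilized bound libraries. None of either list was at 0 in any bound library. EC markers were thus higher and epithelial markers lower in the stabilized libraries, with medians of 0.78 and -0.97 in log2 fold change against -0.09 over all genes. Single markers mostly did not pass: 2 of 18 EC markers were called higher (Cldn5 and Ets1) and 0 of 26 epithelial markers were called by edgeR, where 15 had an unadjusted p under 0.05 and DESeq2 called 6 lower.

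In the inputs the epithelial list showed no such gap, at 38290 and 42073 TPM in WT and 36688 and 45332 TPM in stabilized. Macrophage and microglia markers summed to 306 and 470 TPM in WT bound and to 619 and 655 TPM in stabilized bound libraries, and to 37.5 and 36.4 against 100.3 and 85.4 TPM in the inputs. Of these 20 markers 17 were called higher in bound than in input RNA over both genotypes, and 16 in the WT libraries alone, so enrichment in bound RNA does not single out EC transcripts. Erythrocyte markers, at 143 and 135 TPM in WT bound, measured 54.4 and 63.5 TPM in stabilized bound libraries. By edgeR no gene was called in the lists of markers of macrophages and microglia (20 tested, 6 with an unadjusted p under 0.05, DESeq2 3 called), erythrocytes (5, 2 and 1), mural cells (12, 0 and 0), fibroblasts (13, 2 and 2), neurons (12, 1 and 1), oligodendrocytes (11, 4 and 2) and ependyma (9, 0 and 0), and 1 of 9 astrocyte markers, Gja1, was called higher. These counts pool rises and falls. At an unadjusted p under 0.05, 1 macrophage and microglia, 2 erythrocyte, 1 neuron and 2 oligodendrocyte markers were lower. In such bulk samples more ECs and more RNA per EC cannot be told apart, and the part of these marker differences in the results below was not tested. A second scaling was therefore added after seeing the data, on 302 genes enriched in bound over input choroid plexus RNA and in sorted ECs of all 3 sorted tissues. Of these 302 genes none was a macrophage marker of the list, and 261 were also enriched in bound RNA of the WT libraries alone. The stabilized libraries entered their choice, and 23 of the 302 (7.62%) were called higher without this scaling. By its construction the scaling brings their own median near 0 (from 0.79 to 0.04). Lower medians of EC lists with it are therefore partly set in advance, and it is not an independent check. The scaling lowers the median log2 fold change of all genes by 0.79, and its value is given below as the EC scaling where a gene named with its adjusted p loses its call.

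**Figure D1:**
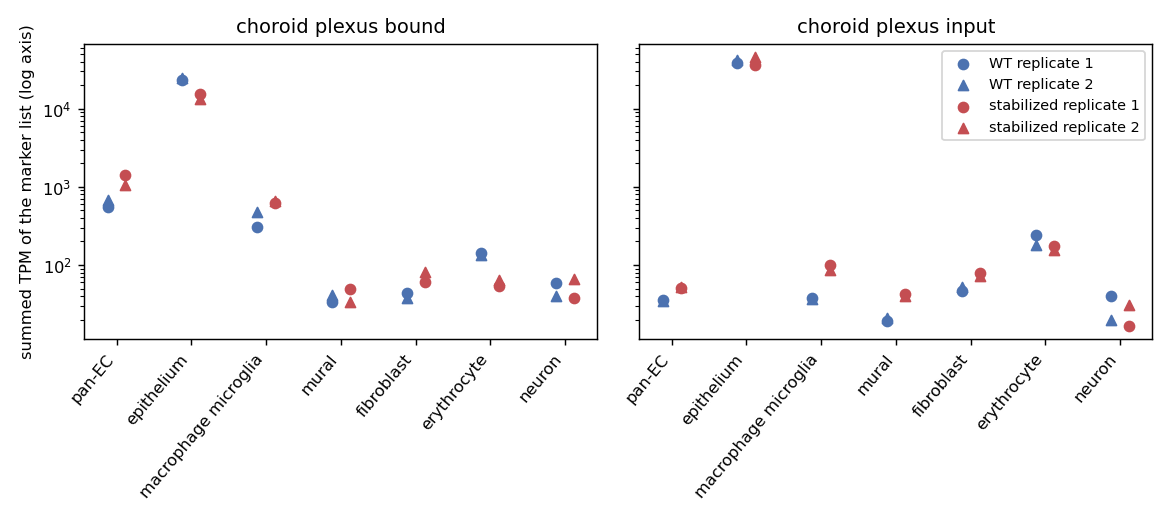
Summed TPM (log axis) of marker lists in each choroid plexus library, bound on the left and input on the right. In the bound libraries pan-EC markers lie higher and epithelial markers lower in both stabilized libraries than in both WT libraries, and in the inputs the epithelial values of the genotypes overlap.

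Of 16775 genes tested, 110 (0.656%) were called higher and 33 (0.197%) lower in stabilized choroid plexus bound RNA. A call needed an adjusted p under 0.05 and a fold of at least 2 in edgeR's quasi-likelihood test with Benjamini-Hochberg adjustment. At an unadjusted p under 0.05 there were 2326 genes. Of the 110 genes called higher 28, and of the 33 called lower 21, stayed under 10 TPM in every bound library. Genes were called bound-enriched where bound exceeded input RNA over both genotypes (12.1% of the genes in that fit) and input-enriched in the opposite case (10.3%). By this measure 77 of the 110 rises were bound-enriched, and of the 33 falls 5 were bound-enriched and 15 input-enriched. The stabilized libraries enter that measure, so a rise itself moves a gene towards bound-enriched and a fall towards input-enriched, and nothing is read from these counts. In an alternative chosen after seeing the data, with the WT libraries alone, where the push is the opposite, 41 of the 110 rises were bound-enriched (1582 of all 16775 genes were) and 13 input-enriched (1197 of all genes were), and of the 33 falls 6 were bound-enriched and 2 input-enriched. With the EC scaling 33 genes (0.197%) were called higher and 31 (0.185%) lower. DESeq2 called 375 higher and 265 lower, and edgeR with a transcript length offset called 22 and 6. Without WT replicate 1, 66 genes were called higher, 54 of them among the 110.

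**Figure D2:**
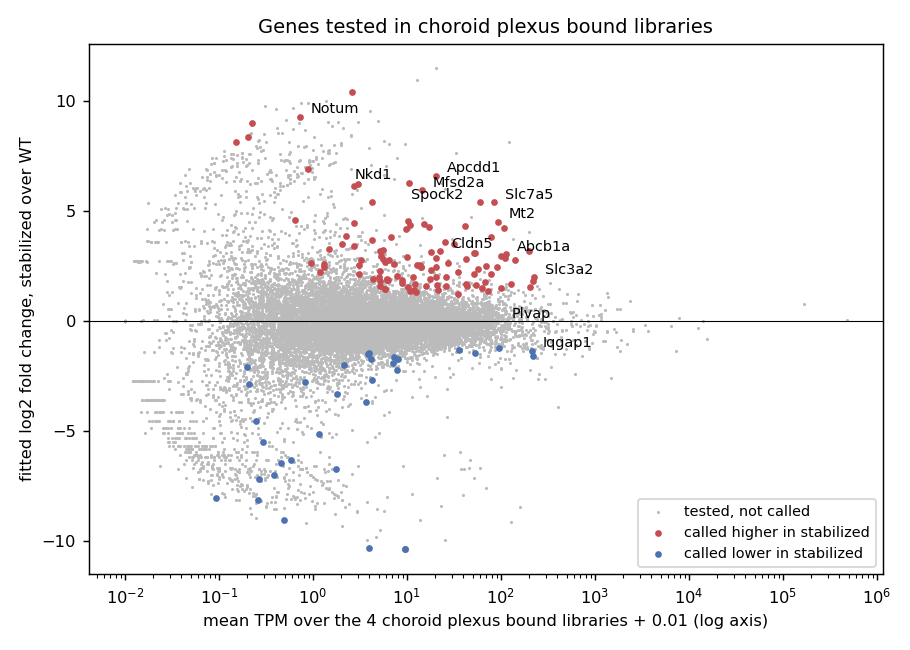
Fitted log2 fold change of stabilized over WT against mean TPM (log axis) for each gene tested in the choroid plexus bound libraries. Red points are the 110 genes called higher and blue points the 33 called lower, and values at the far left and beyond about 7 on the vertical axis come from genes at or near 0 counts in 1 genotype.

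The largest rises among well-expressed genes were in Wnt feedback inhibitors and in membrane transporters. Apcdd1, a membrane-bound Wnt inhibitor, measured 0.204 and 0.851 TPM in WT and 37.1 and 44.2 TPM in stabilized libraries, a log2 fold change of 6.62 ± 0.65 (SE; adjusted p = 0.00319). Nkd1, a Dishevelled-binding feedback inhibitor at chr8:88521354-88594884, measured 0.122 and 0.465 TPM in WT and 21.5 and 19.7 TPM in stabilized libraries (6.31 ± 0.55, adjusted p = 0.00194). Both were under 1 TPM in each WT library, and the genotypes did not overlap, which the rule for naming these genes required.

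Mfsd2a, the transporter that brings docosahexaenoic acid into the brain as a lysophospholipid, measured 1.05 and 0.305 TPM in WT and 27.0 and 29.6 TPM in stabilized libraries (5.95 ± 0.49, adjusted p = 0.00172). Slc7a5, the large neutral amino acid transporter, rose from 3.50 and 3.39 TPM to 157 and 174 TPM, 42.6-fold (5.41 ± 0.39, adjusted p = 0.00125). Spock2, a secreted proteoglycan at chr10:60106219-60135198, rose from 3.81 and 2.50 TPM to 123 and 110 TPM with the same adjusted p. In each of these genes the lowest stabilized value was over 10 times the highest WT value.

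The list of the 10 largest rises was completed by Atp10a, a phospholipid flippase (4.57 ± 0.42, adjusted p = 0.00264), the metallothionein Mt2, the peptidoglycan-binding Pglyrp1, the ubiquitin ligase family member Trim16 (4.38 ± 0.50, adjusted p = 0.00618) and the membrane proteolipid Mal. Mt2, which binds zinc and copper, measured 3.74 and 13.4 TPM in WT and 209 and 143 TPM in stabilized libraries (adjusted p = 0.00827). Mal measured 2.51 and 3.99 TPM in WT and 102 and 58.0 TPM in stabilized libraries (adjusted p = 0.00194). Pglyrp1 was the least even, with 0.160 and 2.80 TPM in WT against 20.5 and 37.5 TPM (adjusted p = 0.0387), and of these 10 genes it alone was not called with the EC scaling (adjusted p = 0.0605).

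The falls were smaller. Only 5 genes met the same rule on level and overlap, and none fell by more than 2.94-fold. Dync1h1, the heavy chain of cytoplasmic dynein, measured 341 and 323 TPM in WT and 84.8 and 131 TPM in stabilized libraries (-1.56 ± 0.29, adjusted p = 0.0482; 0.0655 with the EC scaling). Iqgap1, a scaffold of the actin cytoskeleton, fell from 354 and 279 TPM to 137 and 86.1 TPM (-1.34 ± 0.23, adjusted p = 0.0335). The nucleoporins Nup153 (-1.31 ± 0.22, adjusted p = 0.0335) and Nup214 (-1.44 ± 0.25, adjusted p = 0.0343; 0.0591 with the EC scaling) and the heparan sulfate sulfatase Sulf1 (-1.20 ± 0.21, adjusted p = 0.0382) made up the 5. The TPM of Nup214 was uneven, at 123 and 46.7 in WT and 3.08 and 38.1 in stabilized libraries, whereas the tested counts fell from 954 and 936 to 374 and 303. The falls depended on single libraries: with 1 library left out at a time, only 7 to 20 of the 33 genes called lower kept their call, and none of the 5 bound-enriched ones did. With the choroid plexus libraries fitted alone, 16 of the 33 kept their call.

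Most other genes called lower were weakly expressed, and those named here were chosen after their values were seen. They include the synaptic vesicle protein Syn2 (0.768 and 1.01 TPM in WT, 0 and 0.0222 TPM in stabilized libraries, adjusted p = 0.00514) and the GABA receptor subunit Gabrb1 (1.53 and 1.51 TPM against 0.101 and 0.123 TPM, adjusted p = 0.0115). Gap43, a growth cone protein, had no counts in either stabilized library and was at least 4.21-fold lower (adjusted p = 0.025, against a floor of 3 counts per library). Of the 12 neuron markers edgeR called none and DESeq2 called 1 lower. Their sum overlapped between the genotypes, at 58.6 and 40.2 TPM in WT and 37.4 and 65.4 TPM in stabilized libraries. The processed pseudogene Rpl14-ps1 was at least 38.1-fold lower in bound RNA yet at 30.0 and 27.1 TPM in WT and 29.6 and 25.5 TPM in stabilized inputs. It may share reads with Rpl14, which was not tested, so this call is uncertain.

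Among the Wnt feedback regulators and targets 4 of 14 tested rose and 0 fell, against 0.656% called higher among all genes, with a median log2 fold change of 1.79. With the EC scaling 3 were called and the median was 1.11. By edgeR 7 had an unadjusted p under 0.05, all higher, and DESeq2 called 6 higher. Besides Apcdd1 and Nkd1, Notum, the secreted deacylase that inactivates Wnt ligands, had 0 counts in both WT libraries and 47 and 64 counts in the stabilized ones, at least 19.1-fold higher (adjusted p = 0.0137). Tnfrsf19, a TNF receptor family member, rose from 3.51 and 2.33 TPM to 16.6 and 24.1 TPM (2.03 ± 0.32, adjusted p = 0.0235; 0.114 with the EC scaling). The transcription factors of the pathway did not pass: Lef1 measured 23.98 and 9.84 TPM in WT and 57.7 and 50.8 TPM in stabilized libraries (adjusted p = 0.0608), and Tcf7 measured 0.293 and 0.389 TPM against 2.69 and 2.42 TPM (adjusted p = 0.0576). Axin2, a scaffold of the destruction complex and a common reporter of the pathway, measured 9.35 and 7.31 TPM in WT and 19.5 and 16.4 TPM in stabilized libraries (0.97 ± 0.25, adjusted p = 0.128). Of 20 ligands, receptors and other parts of the pathway, 1 rose by edgeR, the Wnt7 co-receptor component Reck (1.94 and 5.06 TPM to 6.40 and 6.95 TPM, adjusted p = 0.0258; 0.107 with the EC scaling). In this list 2 were higher and 3 lower at an unadjusted p under 0.05 by edgeR, and DESeq2 called 2 higher. The list's median was 0.10 (-0.69 with the EC scaling).

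Of 25 BBB transporters tested, 13 rose and 0 fell, a share of 52% against the 0.656% called higher among all genes. By edgeR 18 had an unadjusted p under 0.05 and were higher, 1 was lower, and DESeq2 called 16 higher. The median was 2.46, and 1.68 with the EC scaling, where 7 were called. Of the 13, Mfsd2a, Slc7a5, Slc35f2 and Slc39a10 kept their call in all 12 settings given at the end. The others lost it with the transcript length offset. Slc2a1, the glucose transporter GLUT1 of BBB capillaries, rose from 21.7 and 27.7 TPM to 179 and 175 TPM (2.97 ± 0.47, adjusted p = 0.025). Slc3a2, the heavy chain that partners Slc7a5, rose from 124 and 92.9 TPM to 367 and 314 TPM (2.01 ± 0.29, adjusted p = 0.0156; 0.0731 with the EC scaling). The cationic amino acid transporter Slc7a1 rose from 2.26 and 1.38 TPM to 10.9 and 11.3 TPM (adjusted p = 0.0192; 0.0663 with the EC scaling). Both chains of the large neutral amino acid transporter were thus higher.

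Of the efflux pumps 2 rose. Abcb1a, P-glycoprotein, rose from 6.13 and 9.47 TPM to 166 and 273 TPM (3.04 ± 0.38, adjusted p = 0.00827), and Abcg2, the breast cancer resistance protein, from 30.8 and 27.8 TPM to 132 and 126 TPM (2.17 ± 0.30, adjusted p = 0.0121; 0.0665 with the EC scaling). The counts tested for Abcb1a rose less than its TPM, from 562 and 821 to 6101 and 4987 (a fitted 8.22-fold). Abcc4, a pump of organic anions, was not called (0.52, adjusted p = 0.537). The organic anion transporter Slco1a4 rose from 20.1 and 26.9 TPM to 91.5 and 70.4 TPM (adjusted p = 0.0236; 0.0684 with the EC scaling). Among carriers of metals and vitamins, the zinc transporter Slc39a10 rose from 4.85 and 4.58 TPM to 49.3 and 42.0 TPM (3.58 ± 0.27, adjusted p = 0.00125). Slc19a3, the thiamine transporter, rose to 3.34 and 5.13 TPM from 0.201 and 0.368 TPM (adjusted p = 0.0138). The iron exporter Slc40a1 (16.9 and 3.58 TPM in stabilized libraries, adjusted p = 0.0476; 0.0767 with the EC scaling) and the glutamine transporter Slc38a5 (3.53 and 1.19 TPM, adjusted p = 0.0494; 0.0786 with the EC scaling) rose close to the threshold. Their TPM were uneven between the stabilized libraries but the counts tested were 98 and 194 for Slc40a1 and 59 and 54 for Slc38a5, against 27 and 12 and 10 and 11 in WT. The thyroid hormone transporter Slco1c1 was not called, at 36.9 and 35.5 TPM in WT and 21.6 and 16.5 TPM in stabilized libraries (-0.87 ± 0.32, adjusted p = 0.277). Slco1c1 was at 27.2 and 29.1 TPM in the WT inputs and was not bound-enriched.

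**Figure D3:**
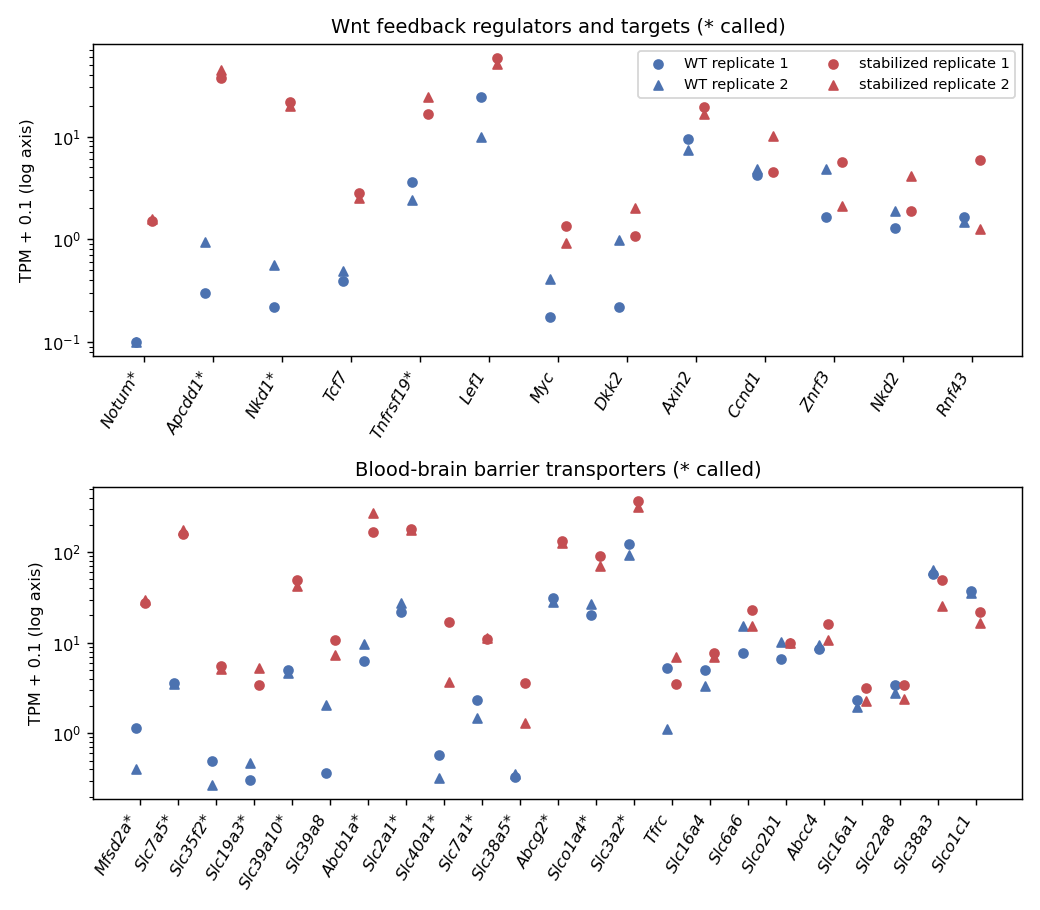
TPM plus 0.1 (log axis) of Wnt feedback regulators and targets (top) and of BBB transporters (bottom) in the 2 WT (blue) and 2 stabilized (red) choroid plexus bound libraries, with an asterisk on genes called higher. For Slc7a5, Mfsd2a, Apcdd1 and Nkd1 both stabilized points lie far above both WT points, whereas Slco1c1 lies lower in stabilized libraries without passing the test.

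Promoters of the called genes were read for the TCF/LEF core motif, spelled ATCAAAG or TTCAAAG and searched on both strands of windows from 250 bases before to 50 bases after each RefSeq start site (GRCm38.p6). Of the 110 genes called higher 82 matched, with 104 windows, of which 11 (10.6%) held the motif, against 925 of 15176 windows (6.10%) of all genes tested. These matches are a description and show no binding. Windows of 4 genes whose rise is given here are shown, with the motif in capitals and each sequence read on the strand of the gene. They lie at chr6:117168355-117168395 (Cxcl12, plus strand), chr1:83038508-83038548 (Slc19a3, minus), chr14:61038166-61038206 (Tnfrsf19, minus, at a RefSeq start inside the gene's span of chr14:60963875-61046490) and chr10:60106107-60106147 (Spock2, plus). In Spock2 the motif is on the opposite strand.
Cxcl12: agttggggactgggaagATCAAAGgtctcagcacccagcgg
Slc19a3: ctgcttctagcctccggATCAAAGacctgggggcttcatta
Tnfrsf19: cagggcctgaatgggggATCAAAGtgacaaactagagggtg
Spock2: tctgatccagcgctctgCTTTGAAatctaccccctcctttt

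Of 21 junction genes 2 rose and 0 fell by edgeR, against 0.656% called higher among all genes and 7.62% among the 302 genes of the EC scaling. At an unadjusted p under 0.05 by edgeR 5 were higher and 2 lower, and DESeq2 called 5 higher and 1 lower. Cldn5, the claudin that seals BBB junctions, rose from 4.10 and 5.31 TPM to 37.6 and 44.0 TPM (3.19 ± 0.32, adjusted p = 0.00371), and was also called higher in the inputs (3.12, adjusted p = 0.0203). Tjp1, the ZO-1 scaffold, rose from 38.1 and 27.4 TPM to 102 and 87.3 TPM (1.52 ± 0.24, adjusted p = 0.025; 0.269 with the EC scaling). The list's median was 0.10 (-0.66 with the EC scaling). Esam, an EC adhesion molecule, measured 167 and 171 TPM in WT and 598 and 391 TPM in stabilized libraries but did not pass (adjusted p = 0.0822). Cdh5, VE-cadherin, was at 38.0 and 37.5 TPM against 56.0 and 48.9 TPM (0.70 ± 0.40, adjusted p = 0.472). Cgnl1, paracingulin, was at 793 and 693 TPM in WT and 250 and 228 TPM in stabilized libraries (-1.27 ± 0.32, adjusted p = 0.121) and was called lower with the EC scaling (-2.07, adjusted p = 0.0495).

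No gene of the fenestra and caveola group was called among 14 tested. By edgeR 2 had an unadjusted p under 0.05, both higher, and DESeq2 called 0. Plvap, the diaphragm protein of fenestrae, was at 84.2 and 124 TPM in WT and 111 and 81.7 TPM in stabilized libraries, so the genotypes overlapped (0.00 ± 0.70, adjusted p = 1). The SE of this estimate leaves room for a change of more than 2-fold in either direction. Cav1, which forms caveolae, was at 31.6 and 16.1 TPM against 71.4 and 26.6 TPM (adjusted p = 0.405), and Cavin1 was at 45.9 and 73.7 TPM against 115 and 89.4 TPM (adjusted p = 0.743). The group's median was 0.04, close to that of all genes, and -0.72 with the EC scaling.

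Of 26 EC transcription factors 23 had positive fold changes, as had 17 of the 18 pan-EC markers, 267 of the 302 genes of the EC scaling and 7393 of all 16775 genes. The median of the factors was 0.96, and 0.18 with the EC scaling. Of the 26, 14 were higher and 1 lower at an unadjusted p under 0.05 by edgeR, and DESeq2 called 8 higher. By edgeR 4 rose, against 0.656% called higher among all genes and 7.62% among the 302 genes of the EC scaling. They were Foxq1 (0.176 and 0.385 TPM to 1.68 and 1.52 TPM, adjusted p = 0.0156), Foxf2 (1.38 and 1.03 TPM to 4.16 and 5.94 TPM, adjusted p = 0.0438), Ets1 (11.6 and 14.9 TPM to 36.3 and 20.3 TPM, adjusted p = 0.0405) and Ets2 (adjusted p = 0.0449). Foxf2 and Foxq1 are forkhead factors of brain ECs, and none of the 4 was called with the EC scaling (adjusted p from 0.0655 to 0.173). Sox17, an arterial and Wnt-responsive factor, was at 2.30 and 3.46 TPM in WT and 10.8 and 14.5 TPM in stabilized libraries without passing (adjusted p = 0.256). Among 21 genes of VEGF, apelin and Tie signaling (5 with an unadjusted p under 0.05, DESeq2 5 called) 2 rose, against the same 0.656% and 7.62%. They were the tip cell ligand Apln (0.0345 and 0.0745 TPM to 1.18 and 1.26 TPM, adjusted p = 0.0266; 0.0655 with the EC scaling) and the Tie2 ligand Angpt2 (0.582 and 0.943 TPM to 14.03 and 5.18 TPM, adjusted p = 0.0276; 0.0658 with the EC scaling). Kdr, the main VEGF receptor, was at 38.3 and 48.9 TPM against 41 and 28.2 TPM (adjusted p = 0.785).

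Among all genes 0.656% were called higher by edgeR, and among the 302 genes of the EC scaling 7.62%. Of all 16775 genes 2326 had an unadjusted p under 0.05. Of 20 Notch and arterial genes (6 higher and 2 lower with an unadjusted p under 0.05, DESeq2 1 called) 1 rose, the chemokine Cxcl12, from 11.3 and 13.1 TPM to 102 and 82.4 TPM (3.12 ± 0.37, adjusted p = 0.00695). Of 23 basement membrane and matrix genes (7 and 5) 2 rose, fibronectin (Fn1, 28.0 and 30.2 TPM to 152 and 155 TPM, adjusted p = 0.0156; 0.0655 with the EC scaling) and Sparcl1 (94.8 and 99.4 TPM to 322 and 291 TPM, adjusted p = 0.0179; 0.212 with the EC scaling). Car4, a carbonic anhydrase on the luminal face of brain capillaries, rose from 27.6 and 29.0 TPM to 93.8 and 78.9 TPM (adjusted p = 0.0147; 0.0655 with the EC scaling). It was the 1 gene called by edgeR among 14 of its list (4 with an unadjusted p under 0.05, DESeq2 2 called). Ifitm3, an interferon-induced membrane protein, rose from 61.3 and 68.6 TPM to 210 and 178 TPM (adjusted p = 0.0119; 0.133 with the EC scaling). The other 20 genes of its list had positive fold changes, and edgeR called none of them. Of all 21 genes of the list 6 had an unadjusted p under 0.05 by edgeR, and DESeq2 called 3. The list median was 1.04. That median was 0.25 with the EC scaling.

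In 9 further lists edgeR called no gene in either direction. They covered venous and adhesion genes (15 tested, 6 with an unadjusted p under 0.05, DESeq2 6 called), lipid uptake (12, 6 and 1), flow response (12, 5 and 1), BMP and TGF-beta signaling (24, 8 and 2), axon guidance ligands and receptors (25, 8 and 4), insulin-like growth factors (11, 4 and 2), chemokines (5, 0 and 0), cell cycle (20, 4 and 0) and immediate early genes (19, 7 and 4). These counts pool rises and falls. At an unadjusted p under 0.05, 4 lipid uptake, 2 BMP and TGF-beta, 2 guidance, 1 insulin-like growth factor and 1 cell cycle gene were lower. Of the DESeq2 calls, 1 in lipid uptake and 1 in guidance were lower. Gpihbp1, which anchors lipoprotein lipase on capillaries, had the widest gap of the lipid list, at 50.3 and 50.6 TPM in WT and 5.30 and 9.91 TPM in stabilized libraries, without passing (-2.51 ± 0.54, adjusted p = 0.105). Lcn2, lipocalin 2, was at 2.38 and 1.93 TPM against 19.1 and 31.1 TPM (adjusted p = 0.0608). Both were chosen after their values were seen, and neither passed the test.

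Lists of cerebellar BBB and pituitary EC transcripts were then defined in the sorted WT cells alone, which share no library with choroid plexus. Of 136 cerebellar BBB transcripts, 42 (30.9%) rose in stabilized choroid plexus ribosomes and 0 fell, against 0.656% called higher and 0.197% lower among all genes. The BBB transcripts had a median of 1.17 and 117 positive fold changes. By edgeR 86 were higher and 4 lower at an unadjusted p under 0.05, and DESeq2 called 69 higher and 1 lower. Of 120 pituitary EC transcripts, 3 (2.5%, against the same 0.656% of all genes) rose and 0 fell, with a median of 0.11 and 69 positive. Of the 302 genes of the EC scaling 23 (7.62%) were called higher, with a median of 0.79, so the pituitary share was not above that of EC genes. By edgeR 19 were higher and 4 lower at an unadjusted p under 0.05, and DESeq2 called 11 higher and 1 lower. The 3 were Ccn2, a matricellular growth factor (16.8 and 23.7 TPM to 136 and 99.1 TPM, adjusted p = 0.037), the gap junction protein Gja1 (19.6 and 17.2 TPM to 51.2 and 129 TPM, adjusted p = 0.0152) and Kctd12 (5.41 and 7.23 TPM to 15.4 and 14.7 TPM, adjusted p = 0.0262). Without WT replicate 1, 25 BBB transcripts were called higher, and with a transcript length offset 13. With the EC scaling 17 BBB transcripts were called higher and 1 lower (median 0.40), and 0 pituitary transcripts were called (median -0.68; adjusted p from 0.0655 to 0.269 for the 3 named). In the inputs 7 of 132 BBB transcripts were called higher, with a median of 0.25, against 0.0995% called higher among all genes there.

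**Figure D4:**
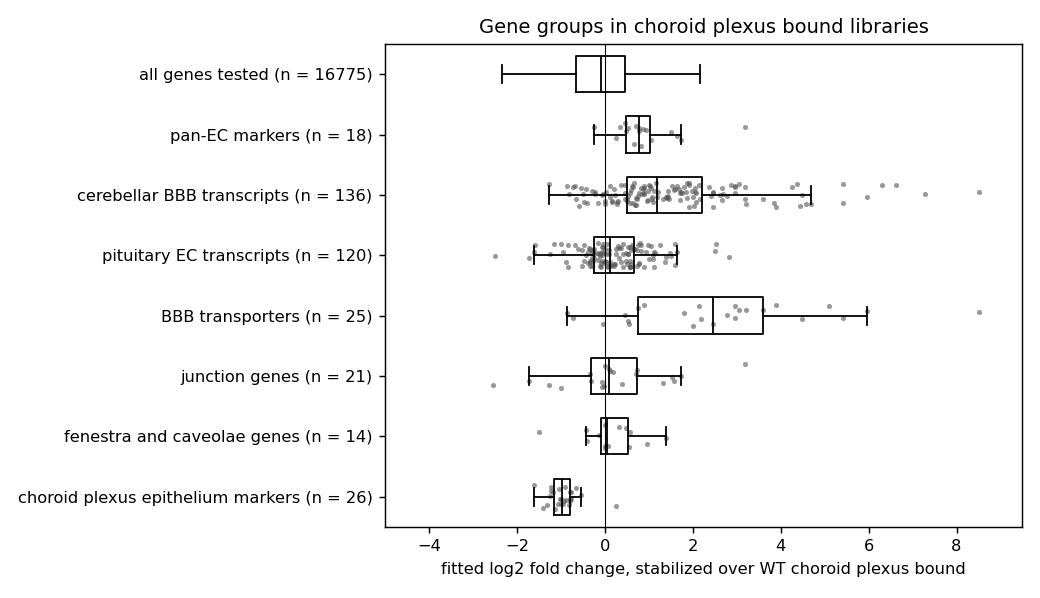
Fitted log2 fold changes of stabilized over WT choroid plexus bound RNA by gene group, with boxes for the median and quartiles, whiskers to 1.5 interquartile ranges and points for single genes. BBB transporters and cerebellar BBB transcripts lie to the right, fenestra and caveola genes and pituitary EC transcripts around 0, and epithelial markers to the left.

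The bound fraction was next compared with its own input, which shows whether a difference was also present in whole tissue. In the inputs 16 genes (0.0995%) were called higher and 1 (0.00622%) lower. Of the 110 genes called higher in bound RNA 9 were also called higher in input, and 37 had a larger response in bound than in input (interaction, adjusted p under 0.05; 0.219% of all genes). The 110 were chosen by their rise in the same bound libraries that enter the interaction, so nothing is read from these 37 against all genes. Each bound library shares a homogenate with an input, and a replicate block for the shared pool, chosen after seeing the data, gave 39 of the 110, of which 32 were among the 37. Slc7a5 was among these 37, at 1.10 and 1.25 TPM in WT and 7.32 and 14.7 TPM in stabilized inputs (interaction adjusted p = 0.000945), as were Spock2 (adjusted p = 0.000945), Nkd1 (0.00458) and Slc39a10 (0.00362). Cldn5 was not (adjusted p = 1), with log2 fold changes of 3.19 in bound and 3.12 in input RNA. Fn1 was likewise called higher in input (2.28, adjusted p = 0.0158). So were Abcb1a (2.86, adjusted p = 0.0383), Apcdd1 (3.56, 0.0484), Mal (2.22, 0.0158), Spock2 (1.81, 0.0211) and Cxcl12 (1.12, 0.0303). The interaction did not pass for Fn1 (adjusted p = 0.925), Abcb1a (0.961) and Apcdd1 (0.226). With the pool block it passed for Apcdd1 (adjusted p = 0.0358).

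The cortex gives the response of ECs that already have a BBB. There 612 genes (3.65%) were called higher and 448 (2.67%) lower, with the sexes of the genotypes as given above. Of the 110 genes called higher in choroid plexus 31 were also higher in cortex, and 45 had a larger response in choroid plexus (interaction; 145 of all genes, 0.864%). The choroid plexus libraries that chose the 110 also enter this interaction, so nothing is read from the 45 against all genes. A lower response in choroid plexus was found for 215 genes (1.28%). With the EC scaling these counts were 35 and 61, and without WT replicate 1 they were 112 and 129. Slc7a5 had a log2 fold change of 5.41 in choroid plexus and 1.81 in cortex, and Mfsd2a of 5.95 and 1.53. Slc39a10 and Cxcl12 were called in choroid plexus but had values of 0.11 (adjusted p = 0.865) and 0.20 (adjusted p = 0.797) in cortex. Axin2 went the other way, at 0.97 in choroid plexus and 2.66 (adjusted p = 0.00119) in cortex.

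In sorted posterior pituitary ECs, another fenestrated bed, 224 of 17915 genes (1.25%) were called higher with stabilized beta-catenin, and in anterior pituitary ECs 79 (0.441%). Of the 110 genes higher in choroid plexus, 41 (37.3%) were also called higher in posterior pituitary and 23 (20.9%) in anterior pituitary, which are 41 of the 217 and 23 of the 78 such genes tested in choroid plexus. For stabilized anterior pituitary replicate 2 the title names the anterior lobe and the tissue label the posterior lobe. Without this library (chosen after seeing the data) 167 genes were called higher in anterior pituitary and 23 of the 110 were among them, 21 of these the same genes. Those called in all 3 numbered 18, also without that library, and the 52 genes higher in both lobes had a median of 1.65 in choroid plexus. With the EC scaling 26 of the 217, 14 of the 78 and 12 of the 52 were called higher in choroid plexus. The medians of these lists were then -0.01, 0.39 and 0.88. Nkd1 had log2 fold changes of 6.31 in choroid plexus and 7.56 in posterior pituitary, Spock2 of 5.41 and 4.90, and Slc2a1 of 2.97 and 5.78. Axin2 rose in posterior pituitary (5.73, adjusted p = 0.0291) but was not called in choroid plexus. Cxcl12 rose in choroid plexus and in anterior pituitary (2.87, adjusted p = 0.0498) and had a value of -0.66 (adjusted p = 0.595) in posterior pituitary. These fits were made separately, so differences between choroid plexus and pituitary were not tested.

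**Figure D5:**
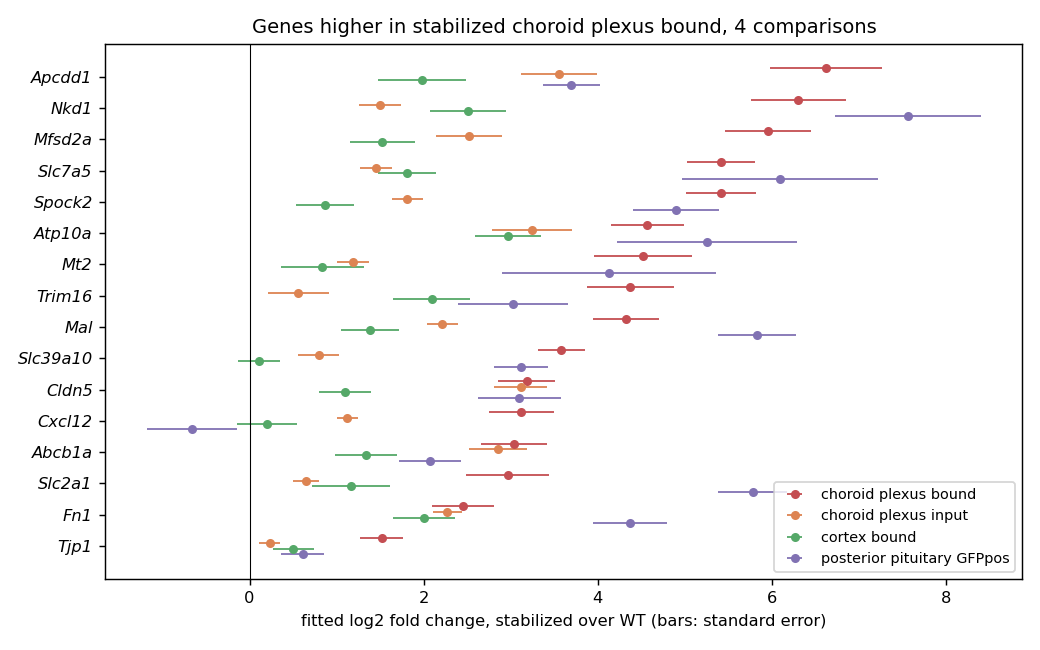
Fitted log2 fold change of stabilized over WT (points, bars show the SE) for 16 genes called higher in choroid plexus bound RNA, beside the values in choroid plexus input, cortex bound and sorted posterior pituitary ECs. Slc7a5, Spock2 and Slc39a10 lie further right in choroid plexus bound RNA than in its input or in cortex, and no posterior pituitary point is drawn for Mfsd2a, which had 0 and 1 counts in the WT cells there.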

How the data were processed

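Stabilized and WT choroid plexus bound RNA was compared (2 pools each). The p-values rest on the spread between replicate libraries within every bound group, the cortex libraries included. Libraries were single-end (NextSeq500, NuGEN Ovation Ultralow V2). The authors quantified transcripts with Salmon 0.10.2 (GRCm38, Ensembl annotation) and deposited estimated counts and TPM per transcript. Here the estimated counts were summed to genes with GENCODE M21 names, rounded, and tested with edgeR 4.0.16 (quasi-likelihood F test, TMM, filterByExpr) across the 8 bound libraries, 1 coefficient per group, 4 residual degrees of freedom. The test used by the authors, EBSeq, was not run. Bound-enriched genes came from the mean bound against the mean input of both genotypes. TPM was used for display and for the minimum of 10 in naming genes.

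Named genes were the 10 largest rises and falls among called protein-coding genes reaching 10 TPM in each library of the higher genotype and whose TPM did not overlap, the 6 largest that were bound-enriched, every called member of 31 lists, members of 4 lists at 10 TPM, Ctnnb1 and Rpl22. Members and lists were chosen with earlier results of these data known. Alternatives were DESeq2 1.42.0, DESeq2-type size factors, no filter, no fold minimum, a transcript length offset, choroid plexus libraries alone, a replicate block, leaving out each library and, chosen after seeing the data, the EC scaling, enrichment from WT libraries alone, bound and input blocked by homogenate pool (numbers taken to match within a tissue and genotype), and an anterior pituitary fit without the library whose labels disagree. Counting error is not modelled for shared reads between near-identical transcripts, and TPM and fitted fold changes may differ in direction where transcript usage differs.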

Additional observations from a re-analysis of the deposited data

Results flagged for a closer look

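For 21 of the 80 named genes the response to stabilized beta-catenin differed between choroid plexus and cortex ribosomes by the interaction test of edgeR (adjusted p from 0.00307 to 0.0466). Of all 16775 genes 145 had a higher and 215 a lower response in choroid plexus, and 35 and 61 with the EC scaling. Many named genes were chosen by their change in the same choroid plexus libraries that enter this interaction. Nothing is therefore read from the 21 against all genes. The differences below are choroid plexus minus cortex in log2 fold change. The cortex genotypes also differed in their sex markers, from which their genotype effect cannot be told apart, and no explanation was tested.

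The response was larger in choroid plexus for the Wnt feedback inhibitors Apcdd1 (4.64), Nkd1 (3.80) and Notum (7.88, with no counts in WT choroid plexus, so this fitted value is no bound). It was larger for the transporters Mfsd2a (4.43), Slc7a5 (3.60), Slc35f2 (4.27) and Slc39a10 (3.48), for the junction gene Cldn5 (2.09), and for Spock2 (4.55), Mt2 (3.69) and Mal (2.94). The signaling and matrix genes Apln (5.54), Cxcl12 (2.92), Sparcl1 (1.82) and Gja1 (1.88) and the transcription factor Ets2 (2.14) differed in the same direction.

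The response was lower in choroid plexus for Axin2 (-1.70), which rose in cortex, for Dync1h1 (-2.71), which fell in choroid plexus and rose in cortex (1.16, adjusted p = 0.046), and for Nup214 (-1.91), Iqgap1 (-1.81) and Nup153 (-1.53), which fell in choroid plexus.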

How the results depend on the processing

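The counts of calls moved with the processing, and no called gene among the named genes changed direction. The EC scaling turned the sign of the medians of several lists, among them the pituitary EC transcripts (0.11 to -0.68) and the fenestra and caveola genes (0.04 to -0.72). The 110 genes called higher became 375 with DESeq2, 461 without the filter, 186 with the choroid plexus libraries alone, 22 with a transcript length offset, 33 with the EC scaling and 66 to 115 when 1 library was left out (66 without WT replicate 1). The 33 called lower became 265, 413, 74 and 6 in the first 4 of these settings and 18 to 62 when 1 library was left out (18 without WT replicate 1, 62 without WT replicate 2, 57 without stabilized replicate 2). The 77 bound-enriched genes called higher became 216, 250, 128, 17, 24 with the EC scaling and 43 to 78 (43 without WT replicate 1). The 5 bound-enriched genes called lower became 30, 71, 33, 0, 3 with DESeq2-type size factors and 0 to 6. The 145 genes with a larger response in choroid plexus than in cortex became 488 with DESeq2, 599 without the filter, 34 with the offset, 35 with the EC scaling and 112 to 165. The 215 with a lower response became 610, 771, 82, 61 and 129 to 193 (129 without WT replicate 1). The 42 cerebellar BBB transcripts called higher became 69, 73, 13, 17 and 25 to 40 (25 without WT replicate 1).

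Replicate numbers did not pair WT with stabilized bound libraries (correlation of same-numbered deviations -0.037). With the replicate block 91 genes were called higher, 18 lower and 0 bound-enriched genes lower. With bound and input paired by homogenate pool (a replicate block chosen after seeing the data) 1967 genes instead of 2201 were bound-enriched, and 75 of the 77 bound-enriched rises kept that state. Of the 43 called named genes, 11 kept their call in all 12 settings (Apcdd1, Nkd1, Mfsd2a, Slc7a5, Spock2, Atp10a, Mal, Slc35f2, Slc39a10, Cldn5 and Cxcl12) 20 with the EC scaling, 21 without WT replicate 1 and 11 with the length offset, and the causes of lost calls were not tested. Without stabilized replicate 2, which had the fewest Ddx3y counts, 30 of 43 kept theirs. Only 2 pools per genotype, with 6409013 to 7585218 counts each, limit what could be called.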

Other observations

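Genes outside the lists also rose, and those named here were chosen after their values were seen. Beside Mt2, the second metallothionein Mt1 measured 20.1 and 36.4 TPM in WT and 187 and 196 TPM in stabilized choroid plexus bound RNA (2.87 ± 0.33, adjusted p = 0.00602; 0.0655 with the EC scaling), while its input levels lay between 52.0 and 75.7 TPM in all 4 libraries. Selenop, the plasma selenium carrier, rose from 30.4 and 53.4 TPM to 361 and 356 TPM (adjusted p = 0.00514). Prom1, the membrane protein prominin 1, rose from 13.0 and 7.76 TPM to 229 and 180 TPM (4.26 ± 0.42, adjusted p = 0.00341). Net1, a RhoA exchange factor, rose from 8.94 and 12.1 TPM to 147 and 143 TPM (3.85 ± 0.31, adjusted p = 0.00146). None of these pairs of values overlapped between genotypes, as was so for 108 of the 110 genes called higher.

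More genes chosen in this way follow, and no group among them was tested. The heparin-binding growth factor Ptn rose from 11.3 and 10.6 TPM to 75.8 and 71.4 TPM (adjusted p = 0.00287), with 9.07 to 11.9 TPM in the inputs of both genotypes. Ndnf rose from 0.299 and 0.275 TPM to 10.6 and 16.2 TPM (adjusted p = 0.003), and the enkephalin precursor Penk from 4.02 and 10.4 TPM to 74.9 and 37.1 TPM (adjusted p = 0.0137). Spp1, osteopontin, rose from 0.559 and 2.98 TPM to 34.6 and 30.3 TPM (adjusted p = 0.0361; 0.0605 with the EC scaling), and Gpnmb from 0.0432 and 0.0874 TPM to 3.99 and 7.89 TPM (adjusted p = 0.00904). Spp1 and Gpnmb are also expressed by macrophages, whose summed markers were higher in the stabilized libraries, and their part in these rises was not tested. The LIM factor Lmo2 rose from 10.4 and 19.6 TPM to 65.5 and 44.7 TPM (adjusted p = 0.00399; 0.0684 with the EC scaling).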
